A study of Mus musculus with 12 samples.

Results

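Immediate early and heat shock genes are 37 genes chosen by name, 29 immediate early and 8 heat shock genes, and all 37 were among the 26938 genes with a count in 93126 cells. The cells came from 48 subcutaneous tumors of MC38, a colon carcinoma cell line of the mouse, in female hosts aged 8 to 12 weeks. Hosts were F1 crosses of C57BL/6J with CC001/UncJ, CC002/UncJ, CC007/UncJ, CC036/UncJ, CC075/UncJ, CC079/TauUncJ or CC080/TauUncJ, strains of the Collaborative Cross, or C57BL/6J itself (B6). At a tumor volume of 75 to 110 mm3 each animal was given 200 µg of an isotype control antibody (2A3) or of the PD-1 antibody 29F.1A12 (aPD1) into the peritoneum, and tumors were taken 48 h later, frozen in medium with DMSO, thawed, digested with collagenase at 37 °C and sorted to hold 90% CD45+ and 10% CD45- cells. Each of 12 libraries pooled 4 tumors, an isotype and an aPD1 tumor of each of 2 strains. The study classed CC001, CC002 and CC075 hosts as responders to aPD1 (10 isotype and 10 aPD1 tumors) and CC036, CC079 and CC080 hosts as non-responders (9 and 9); B6 and CC007 hosts (5 and 5) were in no class. Isotype and aPD1 tumors never carried the same hashtag, so hashtag and treatment cannot be told apart. The replicate was the tumor, and 1 animal identifier stood on 2 tumors of CC080 hosts, in pools 3 and 4.

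Immediate early genes are transcribed within minutes of a stimulus without new protein synthesis, through factors that are already present in the cell. Their products include the Fos and Jun subunits of the AP-1 transcription factor, the Egr and Nr4a transcription factors, and inhibitors such as the Dusp phosphatases and Zfp36, which switch the response off again. Heat shock genes encode chaperones that hold or refold proteins, and the factor Hsf1 induces them through heat shock elements near their start when proteins unfold. Both groups are also known to be induced by warm enzymatic digestion of tissue, which all of these tumors underwent, so levels set in the animal and levels set by handling cannot be told apart here.

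Promoter sequences from RefSeq (GRCm38.p6), reaching from 250 bases before to 50 after the annotated start, matched 32 of the 37 genes. The 6 windows shown hold a heat shock element, a CArG box or a cyclic AMP response element, in capitals. Hspa1a (chr17:34972107-34972406, minus strand) and Hspa1b (chr17:34959189-34959488, minus strand), the stress-inducible Hsp70 genes, are shown because their windows match at 296 of 300 positions and hold the same heat shock element. Hsph1 (chr5:149636287-149636586, minus strand) encodes the Hsp110 nucleotide exchange factor of Hsp70. Zfp36 (chr7:28379179-28379478, minus strand) and Dusp5 (chr19:53528895-53529194, plus strand) hold a CArG box, the element bound by serum response factor, and Btg2 (chr1:134079106-134079405, minus strand) holds the cyclic AMP response element.
Hspa1a: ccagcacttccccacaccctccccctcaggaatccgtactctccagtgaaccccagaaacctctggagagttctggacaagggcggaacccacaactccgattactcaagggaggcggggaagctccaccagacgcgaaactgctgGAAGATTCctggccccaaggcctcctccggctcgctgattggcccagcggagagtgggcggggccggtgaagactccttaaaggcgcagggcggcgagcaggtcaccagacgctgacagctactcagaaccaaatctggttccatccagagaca
Hspa1b: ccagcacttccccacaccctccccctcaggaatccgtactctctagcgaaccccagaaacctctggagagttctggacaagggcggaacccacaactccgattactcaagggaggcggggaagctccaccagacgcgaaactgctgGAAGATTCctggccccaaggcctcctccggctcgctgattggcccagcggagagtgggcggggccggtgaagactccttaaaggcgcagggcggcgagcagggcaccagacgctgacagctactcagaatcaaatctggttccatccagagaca
Hsph1: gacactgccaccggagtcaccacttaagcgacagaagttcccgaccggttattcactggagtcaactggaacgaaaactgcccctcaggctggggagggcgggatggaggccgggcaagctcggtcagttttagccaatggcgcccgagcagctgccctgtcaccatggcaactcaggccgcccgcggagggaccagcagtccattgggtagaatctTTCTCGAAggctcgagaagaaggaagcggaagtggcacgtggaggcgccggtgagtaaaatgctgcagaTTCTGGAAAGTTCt
Zfp36: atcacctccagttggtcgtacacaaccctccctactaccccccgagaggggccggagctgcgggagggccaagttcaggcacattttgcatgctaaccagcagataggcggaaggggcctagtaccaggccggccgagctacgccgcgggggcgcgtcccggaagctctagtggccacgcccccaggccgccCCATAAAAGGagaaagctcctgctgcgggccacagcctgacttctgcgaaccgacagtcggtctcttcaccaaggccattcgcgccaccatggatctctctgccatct
Dusp5: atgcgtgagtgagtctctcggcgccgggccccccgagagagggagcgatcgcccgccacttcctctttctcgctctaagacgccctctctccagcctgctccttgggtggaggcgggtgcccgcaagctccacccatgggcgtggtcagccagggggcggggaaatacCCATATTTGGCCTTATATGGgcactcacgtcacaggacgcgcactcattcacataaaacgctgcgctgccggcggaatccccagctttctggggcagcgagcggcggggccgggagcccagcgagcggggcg
Btg2: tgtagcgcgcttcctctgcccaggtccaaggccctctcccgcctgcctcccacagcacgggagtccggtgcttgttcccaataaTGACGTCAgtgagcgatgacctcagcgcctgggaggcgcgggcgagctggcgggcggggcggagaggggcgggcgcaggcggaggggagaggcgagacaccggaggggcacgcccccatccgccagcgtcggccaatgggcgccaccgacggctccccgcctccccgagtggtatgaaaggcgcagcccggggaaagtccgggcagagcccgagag
The heat shock element was searched as GAANNTTC and as TTCNNGAA. GAANNTTC occurred in 5 of the 6 heat shock genes with a window (Dnaja1, Hspa1a, Hspa1b, Hspe1 and Hsph1) and in 2 of 26 immediate early genes (Fosl2 and Jun), against 9.04% of the 27025 genes with a window. TTCNNGAA occurred in Hspe1, Hsph1 and a window of Egr2, against 9.60% of all genes. The CArG box was found in Dusp5, Egr2 and Zfp36 (1.81% of all genes), the response element TGACGTCA in Btg2, Dusp1 and Maff (2.03%), and its shorter form TGACG in 16 of 26 immediate early and 3 of 6 heat shock genes (23.0%). The AP-1 element TGANTCA was in none of the 32 genes' windows (8.97% of all genes). All searches covered both strands, and TGACG lies within TGACGTCA. A match describes letters of these windows and not a site in use.

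The clusters were the study's own, named here by marker genes: 10 monocyte/macrophage clusters (68059 cells), 8 T/NK clusters (11486 cells), 4 clusters of dendritic cells, 1 granulocytic and 1 fibroblast cluster, and 3 left unnamed. The monocyte/macrophage clusters are called macrophages for short. They include cluster 4, which has monocyte genes among its leading genes. Cells per tumor ranged from 30 to 2394 for macrophages and from 7 to 764 for T/NK cells. Levels are counts per 1000000 UMIs (CPM), where each UMI, a molecular barcode, stands for 1 captured RNA molecule. Median UMIs per cell of a library ranged from 1952 in pool 6 to 5027.5 in pool 7. A barcode also present in another library was carried by 10176 cells. The clusters were built from the expression of the same cells, so differences between clusters are descriptions without a test.

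The 29 immediate early genes took up 1.07% of all UMIs and the 8 heat shock genes 0.290%. Immediate early genes held 4.09% of UMIs in the granulocytic cluster 16, 2.19% in macrophage cluster 4, 1.95% in the small T/NK cluster 23 (212 cells) and 1.92% in macrophage cluster 2, but 0.364% in macrophage cluster 5 and 0.263% in the unnamed cluster 20. The heat shock share was narrower, from 0.141% in granulocytic cluster 16 to 0.40% in T/NK cluster 13. The cluster with the largest immediate early share was therefore the one with the smallest heat shock share. Granulocytic cells were also the shallowest, with a median of 815 UMIs per cell.

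**Figure D1:**
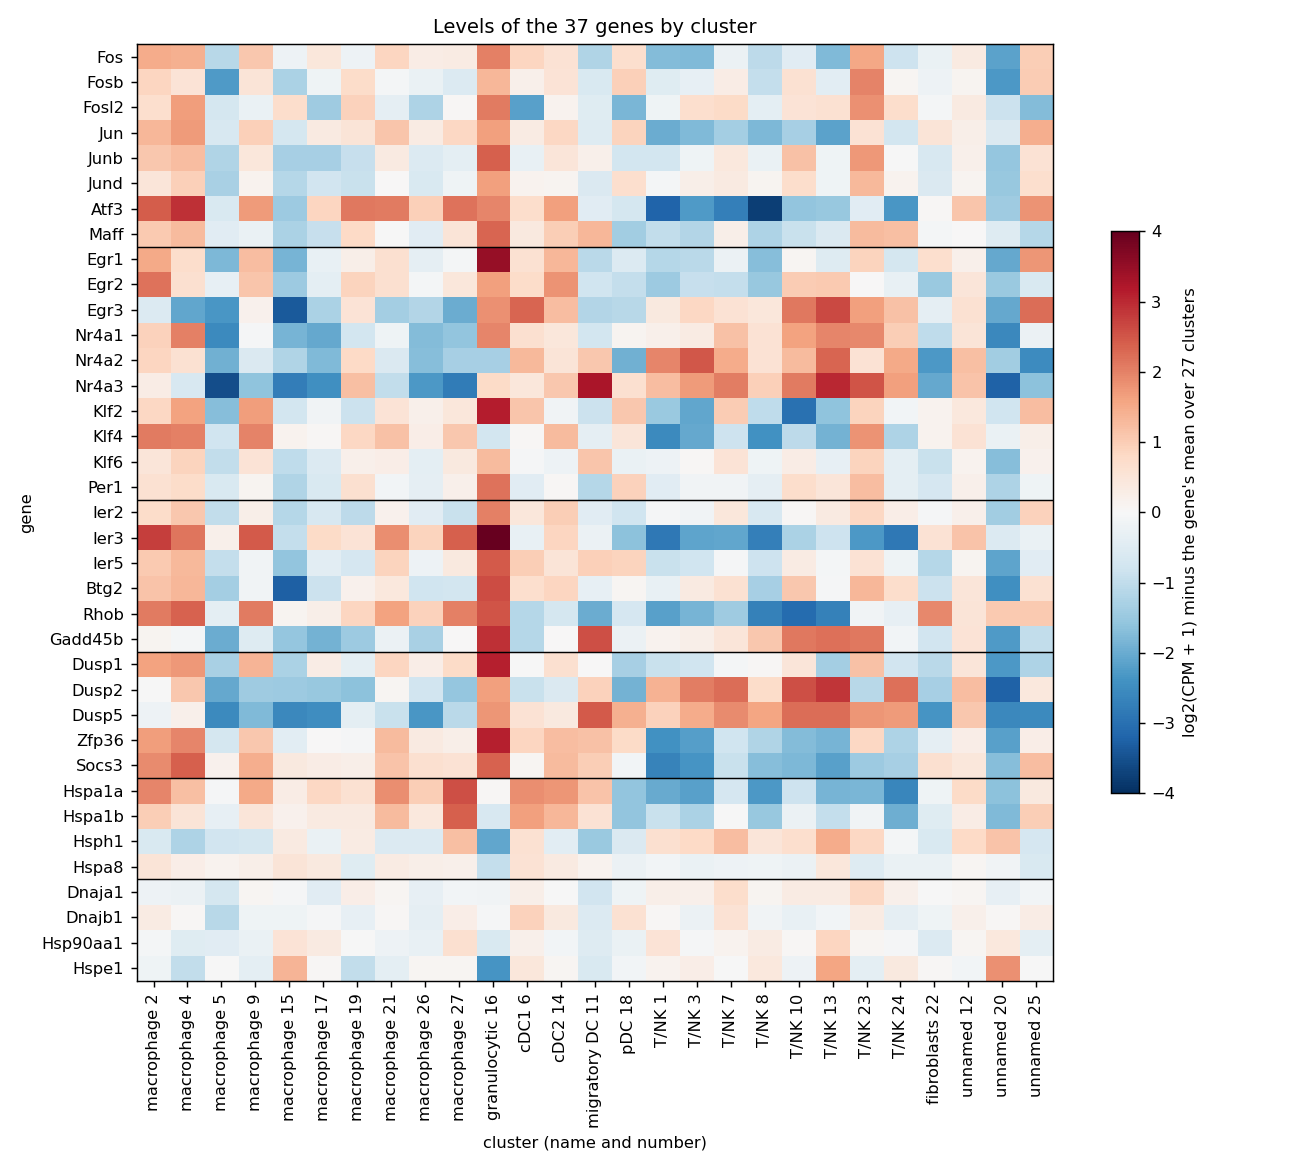
Levels of the 37 genes (rows, grouped by role) in the 27 clusters (columns, named by marker genes), as log2(CPM + 1) less the mean of the gene over clusters, where red is above and blue below that mean. The granulocytic cluster 16 is red for most immediate early genes, macrophage cluster 5 and unnamed cluster 20 are blue for most of them, and Hspa1a and Hspa1b are highest in macrophage cluster 27.

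Among AP-1 subunits, Fos was highest in granulocytic cluster 16 (5125 CPM) and lowest in cluster 20 (285 CPM). Fosl2, Junb and Jund were also highest in cluster 16, at 357, 4211 and 3489 CPM, as was Maff, a small Maf factor, at 85.4 CPM. Jun (1591 CPM) and Atf3 (1665 CPM), a stress-induced AP-1 partner, were highest in macrophage cluster 4, whose leading genes include the monocyte genes Ace, Chil3 and Plac8. Fosb was highest in T/NK cluster 23 (1390 CPM), led by Il17a and Il23r. That cluster had at least 20 cells in 1 tumor only, so this level has no spread over tumors.

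The contrast between macrophage clusters 2 and 5, which share Ly6i, Ccl24 and Fcgr2b among their leading genes, held tumor by tumor. Fos ranged from 2159 to 4701 CPM with a median of 3412 in cluster 2 over 47 tumors, and from 230 to 921 CPM with a median of 586 in cluster 5 over 47 tumors. Atf3 ranged from 669 to 1863 CPM in cluster 2 and from 53.8 to 252 CPM in cluster 5. For both genes every tumor's level in cluster 2 was above every tumor's level in cluster 5. The clusters were drawn on the same cells, so this is a description.

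The zinc finger and nuclear receptor factors were spread over more cell types. Egr1 was highest in granulocytic cluster 16 (2139 CPM), Egr2 in macrophage cluster 2 (99.8 CPM) and Egr3 in T/NK cluster 13 (63.9 CPM), which was led by Il2 and Ifng. The orphan receptors of the Nr4a family, which antigen receptor signals induce in T cells, had 3 different leading clusters. Nr4a1 was highest in macrophage cluster 4 (662 CPM) with T/NK cluster 13 next (634 CPM), Nr4a2 in T/NK cluster 3 (607 CPM), led by Cd8a and Cd8b1, and Nr4a3 in migratory DC cluster 11 (956 CPM) with T/NK cluster 13 next (817 CPM). Over 39 tumors with at least 20 cells of cluster 11, Nr4a3 ranged from 357 to 1803 CPM there. Klf2, Klf6 and the clock gene Per1 were highest in granulocytic cluster 16 (1739, 798 and 162 CPM), and Klf4 in macrophage cluster 2 (430 CPM).

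The immediate early regulators Ier2, Ier3, Ier5, Btg2, Rhob and Gadd45b were all highest in granulocytic cluster 16, at 852, 1929, 928, 1401, 377 and 1046 CPM. Of the feedback inhibitors, Dusp1 (6635 CPM), which inactivates MAP kinases, and Zfp36 (4519 CPM), which binds AU-rich mRNA and promotes its decay, were highest there too. Dusp2 was highest in T/NK cluster 13 (453 CPM), Dusp5 in migratory DC cluster 11 (321 CPM) and Socs3, an inhibitor of cytokine receptor signalling, in macrophage cluster 4 (410 CPM). Of the 29 immediate early genes, 17 were highest in cluster 16 and 13 were lowest in cluster 20. Cluster 16 reached 20 cells in 7 tumors, where Dusp1 ranged from 5026 to 10087 CPM with a median of 6992.

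The inducible chaperones Hspa1a and Hspa1b were highest in macrophage cluster 27 (475 and 433 CPM), led by Gpnmb, Mmp12, Hmox1, Egln3 and Arg1, and lowest in T/NK cluster 24 (12.2 and 20.6 CPM), led by the NK gene Ncr1. Over 45 tumors Hspa1a ranged from 202 to 988 CPM in cluster 27. Both genes lie on chromosome 17 (GRCm38, GENCODE vM21), Hspa1a at chr17:34969190-34972156 and Hspa1b at chr17:34956436-34959238, and 49.3% of the 90-base windows of the Hspa1a transcript also occur in that of Hspa1b, so how counts divide between the pair is uncertain. Hsph1 (138 CPM) and Hsp90aa1 (757 CPM), the inducible Hsp90, were highest in T/NK cluster 13. Hspa8, the constitutive Hsp70, and Dnajb1, an Hsp40 co-chaperone of Hsp70, were highest in cDC1 cluster 6 (1822 and 116 CPM). Dnaja1, also an Hsp40, was highest in T/NK cluster 23 (499 CPM), and Hspe1, the mitochondrial chaperonin Hsp10, in cluster 20 (1135 CPM). Hsph1, Hsp90aa1, Hspa8 and Hspe1 were lowest in granulocytic cluster 16.

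For comparisons between tumors, counts were summed per tumor over macrophages or over T/NK cells and fitted across all genes (edgeR quasi-likelihood test, Benjamini-Hochberg adjusted p under 0.05 called). In macrophages the range over 48 tumors was narrow for Hspa8 (1178 to 2217 CPM, median 1433), Ier2 (155 to 307, median 221) and Jun (545 to 1150, median 857), and wide for Nr4a3 (9.76 to 174, median 53.0), Nr4a2 (27.8 to 331, median 91.0), Dusp5 (8.46 to 95.1, median 23.9) and Hspa1b (31.6 to 573, median 121). Over 47 tumors' T/NK cells Dnaja1 ranged from 232 to 507 CPM (median 348) and Nr4a3 from 81.1 to 810 CPM (median 240). Hspa8 (822 to 1769 CPM, median 1101) was the narrowest there too.

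The first question was whether these genes differ between libraries once host strain and treatment are in the model, each library being 4 tumors prepared as 1 pool. The study corrected its clustering for the processing date of libraries. Date was not in the model, so a date shared by several pools was not separated from library. In macrophages 25 of the 37 genes were called (67.6%), against 16.7% of the 12510 genes tested. Among T/NK cells 27 of 37 were called (73.0%), against 21.3% of the 8144 genes tested. The called genes were 21 of 29 immediate early and 4 of 8 heat shock genes in macrophages, and 24 of 29 and 3 of 8 in T/NK cells. Of other immediate early genes, 20 of 29 tested were called in macrophages, led by Tob1, Ppp1r15a, Ets2 and Trib1, and 14 of 25 in T/NK cells, led by Tnfaip3, Csrnp1, Tob1 and Ppp1r15a. Of other heat shock genes 4 of 28 in macrophages (among them Hspa2 and St13) and 3 of 26 in T/NK cells (among them Ahsa1) were called, 14.3% and 11.5% of those tested.

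**Figure D2:**
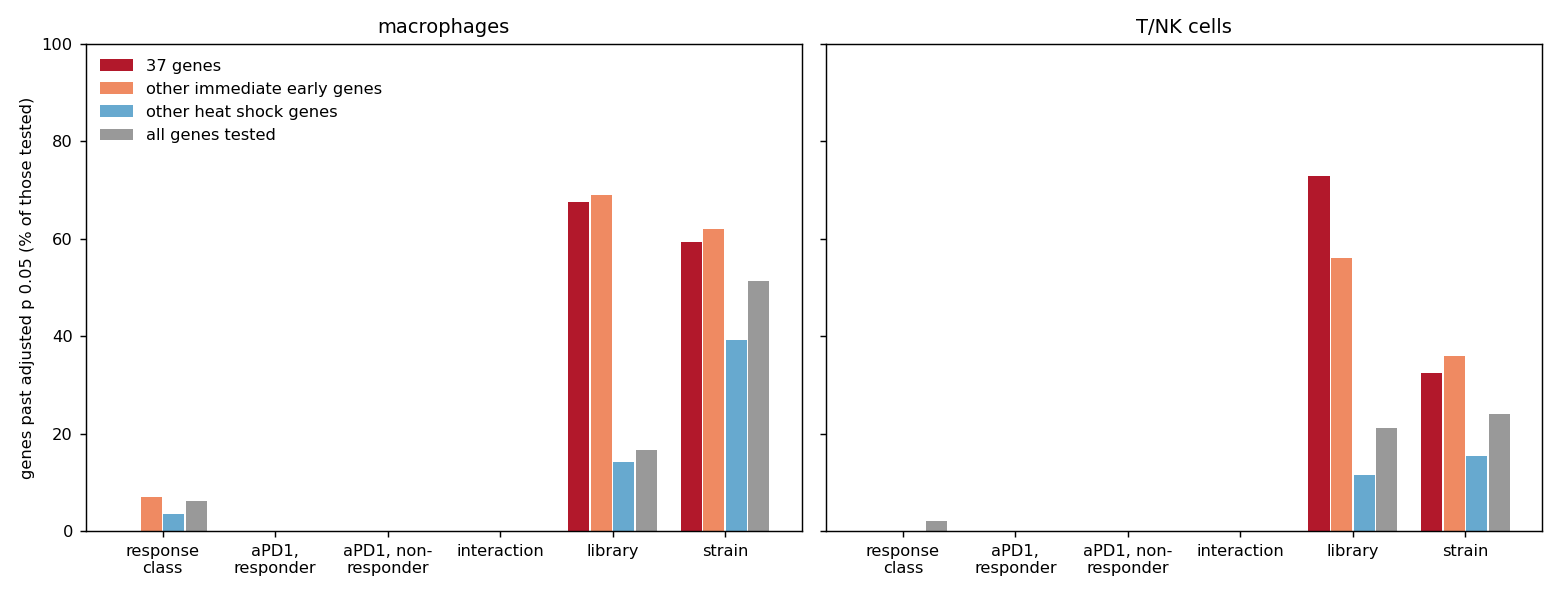
Share of genes past an adjusted p of 0.05 (vertical axis, % of those tested) in 6 comparisons (horizontal axis), for the 37 genes, 2 lists of other genes of the pathways, and all genes tested, in macrophages (left) and T/NK cells (right). The library comparison called 67.6% and 73.0% of the 37 genes against 16.7% and 21.3% of all genes, and the 4 comparisons on the left of each panel called none of the 37.

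The 8 macrophage members of smallest adjusted p were Per1 (1.16e-05), Hspa1a (0.000427), Rhob (0.000431), Zfp36 (0.000488), Btg2 (0.000930), Ier5 (0.00123), Dusp5 (0.00314) and Atf3 (0.00346). Per1 was lowest in pool 3, with 4 tumors from 14.1 to 24.8 CPM, and highest in pool 12, with 4 tumors from 57 to 67.8 CPM. The 2 pools share the host strain CC002, whose tumors had 21.1 (isotype) and 24.8 CPM (aPD1) of Per1 in pool 3, 34.9 and 35.9 CPM in pool 5, and 67.8 and 60.1 CPM in pool 12. The CC002 isotype tumor of pool 12 had only 125 macrophages with 412779 UMIs. Its levels rest on fewer counts than those of the other tumors of that pool. CC080 tumors, of another class, had Per1 at 14.1 and 20.3 CPM in pool 3, 31.6 and 17.6 CPM in pool 4, and 67 and 45.4 CPM in pool 11. Within a host strain, Per1 of pool 3 did not overlap pool 12 (CC002) or pool 11 (CC080). Pools 3 and 12 were picked as its lowest and highest means, so a gap between them is partly fixed by that choice and is a description.

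Hspa1a had 100 (isotype) and 66.4 CPM (aPD1) in CC002 tumors of pool 3, 78 and 62.7 CPM in pool 5, and 412 and 308 CPM in pool 12. In CC001 tumors it had 209 and 176 CPM in pool 1, 184 and 240 CPM in pool 2, 180 and 124 CPM in pool 4, and 349 and 264 CPM in pool 12. In both strains the pool 12 tumors were the highest. Rhob, a small GTPase, had a mean of 103 ± 24.9 CPM (SD, n = 4) in pool 3 and 242 ± 41.1 CPM (SD, n = 4) in pool 11. Zfp36 had 712 ± 94.3 CPM (SD, n = 4) in pool 5 and 1448 ± 82.4 CPM (SD, n = 4) in pool 12, its lowest and highest pools by mean. The tumors of these picked pools did not overlap, which the choice of lowest and highest means partly fixes. Fosb and Junb, not called between libraries in macrophages, also had no overlap between their lowest and highest pools. Btg2, an antiproliferative gene, ran from 158 CPM (pool 3) to 524 CPM (pool 11), Ier5 from 125 CPM (pool 5) to 344 CPM (pool 8), Dusp5 from 12.7 CPM (pool 1) to 74.3 CPM (pool 8) and Atf3 from 465.8 CPM (pool 5) to 981 CPM (pool 8), as pool means.

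In macrophages 19 of the 37 genes had their highest mean in pool 8, which held CC036 and B6 tumors, 14 had their lowest in pool 5 and 9 in pool 1. The same was not counted over all genes, so these counts cannot be read as particular to the 37 genes. Pools 1 to 5 held CC001, CC002, CC079 and CC080 tumors, so a pool mean also carries strain, which the fit takes into account and the mean does not. The 37 genes together held from 1.14% (pool 5) to 1.95% (pool 8) of macrophage UMIs. Macrophage cluster 2, itself high in these genes, made up 21.4% of macrophages in pool 1 and 38.0% in pool 8. Within cluster 2 alone 24 of 37 genes were called between libraries, against 13.5% of the 10266 genes tested there. Without pool 12 the macrophage count fell from 25 to 8 (Per1, Rhob, Hspa1a, Hsp90aa1, Gadd45b, Dnajb1, Hspa1b and Dusp5), and the share of all genes called from 16.7% to 12.5%. Among other cell types' markers in the macrophage sums, the 7 granulocytic markers had pool means from 74.3 CPM (pool 3) to 190 CPM (pool 12) and were all detected, and the 10 T/NK markers from 5.64 CPM (pool 2) to 23.6 CPM (pool 9), none at 0 in every tumor. The 6 migratory DC markers had pool means from 153 to 203 CPM in pools 1 to 5 and of 399, 388 and 451 CPM in pools 8, 11 and 12. Erythroid markers had a mean of 842 CPM in pool 12, where single tumors ranged from 6.76 to 2861 CPM, and at most 79.3 CPM in the other pools. The part of these and of depth in the result was not tested.

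**Figure D3:**
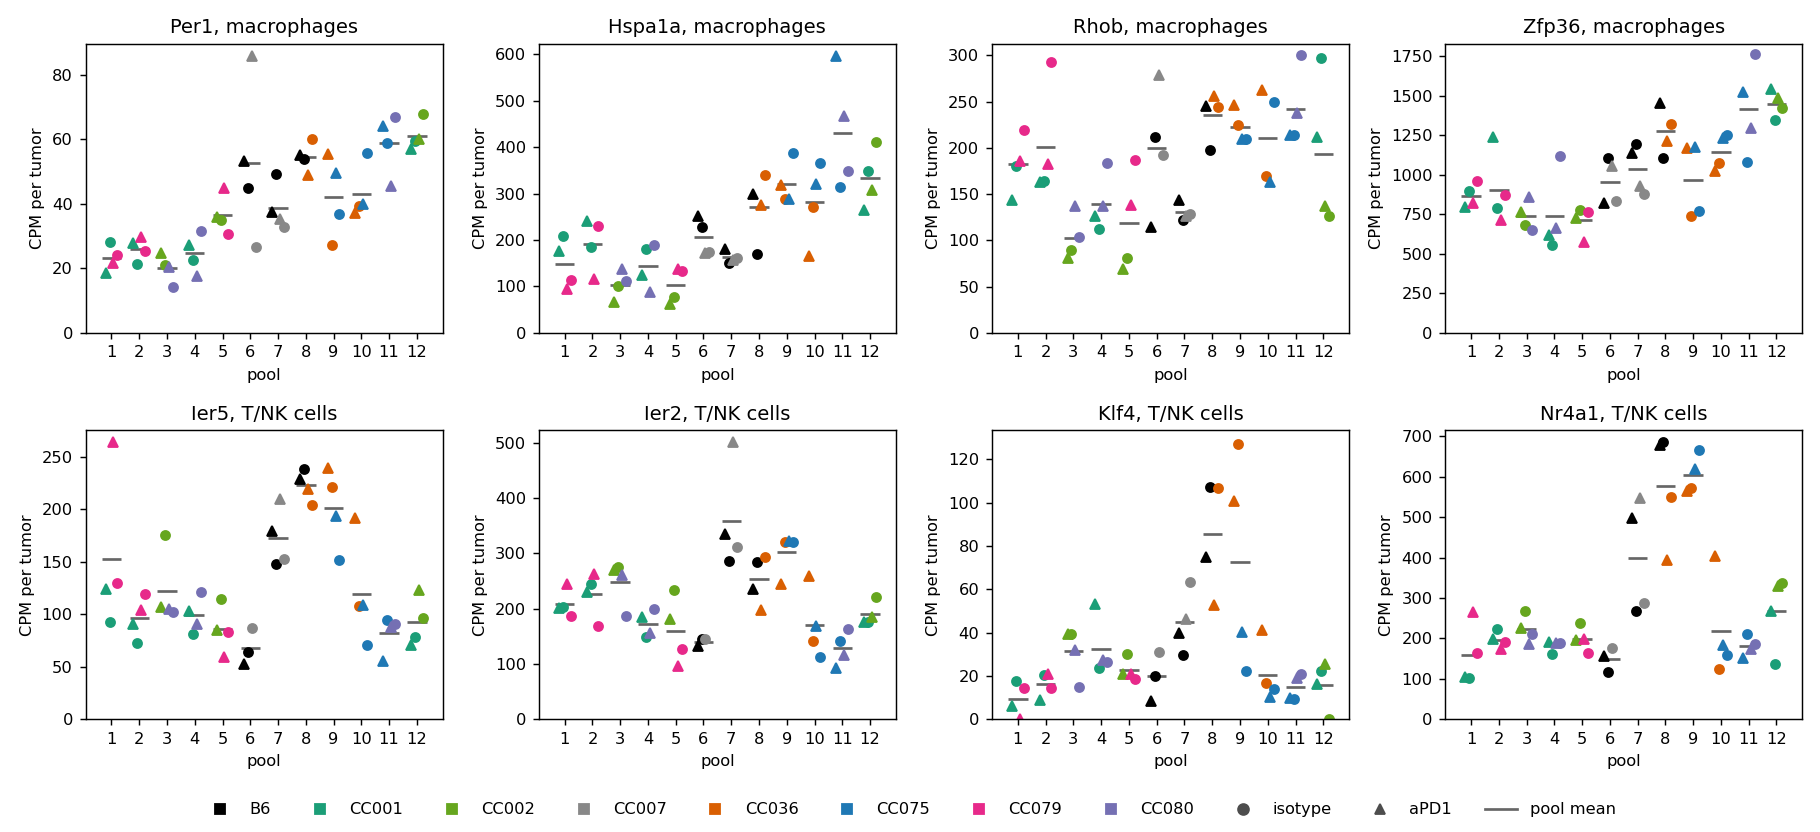
CPM per tumor (vertical axes, from 0) by pool (horizontal axes) of 4 genes in macrophages (top) and 4 in T/NK cells (bottom). Colors give the host strain, circles isotype and triangles aPD1 tumors, and bars the mean of a pool. Per1 lies between 57 and 67.8 CPM in pool 12 and between 14.1 and 24.8 CPM in pool 3, and Nr4a1 in T/NK cells lies between 564 and 667 CPM in pool 9.

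The 8 T/NK members of smallest adjusted p were Ier5 (3.60e-08), Ier2 (2.06e-06), Klf4 (2.35e-06), Fosl2 (1.59e-05), Nr4a1 (1.82e-05), Egr1 (2.69e-05), Junb (3.74e-05) and Nr4a3 (4.95e-05). Pools 7, 8 and 9 were the high ones. Of the 37 genes, 10 had their highest mean in pool 9, 9 in pool 8 and 5 in pool 7, while 15 had their lowest in pool 6 and 8 in pool 11. Here too the pools of all genes were not counted, so a shift shared by other genes is not told apart.

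Nr4a1 in T/NK cells of CC075 tumors was 667 (isotype) and 619 CPM (aPD1) in pool 9, 160 and 183 CPM in pool 10, and 212 and 151 CPM in pool 11. In B6 tumors Nr4a1 was 116 and 156 CPM in pool 6, 267 and 499 CPM in pool 7, and 686 and 680 CPM in pool 8. In CC036 tumors it was 550 and 395 CPM in pool 8, 572 and 564 CPM in pool 9, and 124 and 405 CPM in pool 10. The pool 9 tumors were thus far above pool 10 in CC075, while in CC036 the pool 10 aPD1 tumor came within the range of pool 8.

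Ier5 in T/NK cells of B6 tumors was 63.9 (isotype) and 52.6 CPM (aPD1) in pool 6, 148 and 179 CPM in pool 7, and 238 and 229 CPM in pool 8, so the 3 pools did not overlap. The B6 isotype tumor of pool 7 had only 31 T/NK cells with 101251 UMIs, so its levels rest on few counts. Ier2 in the same tumors was 144 and 132 CPM in pool 6, 286 and 335 CPM in pool 7, and 284 and 235 CPM in pool 8. Klf4 in B6 tumors was 19.8 and 8.41 CPM in pool 6, 29.6 and 39.7 CPM in pool 7, and 107 and 75.1 CPM in pool 8. Fosl2 ran from 57 ± 16.5 CPM (SD, n = 3) in pool 6 to 236 ± 25.9 CPM (SD, n = 4) in pool 9, and Nr4a3 from 176 ± 42.1 CPM (SD, n = 4) in pool 11 to 750 ± 57.4 CPM (SD, n = 4) in pool 9. Egr1 ran from 41.2 CPM (pool 11) to 206 CPM (pool 8) and Junb from 483 CPM (pool 6) to 1406 CPM (pool 8).

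Pool 6, the lowest for 15 genes in T/NK cells, was the shallowest library, and its CC007 aPD1 tumor had 7 T/NK cells and was left out there. Without pool 6 the count in T/NK cells fell from 27 to 17, and without pools 6 and 7, a choice made after seeing the data, to 16. The share of all genes called was 11.05% and 7.68% in these fits. In T/NK cluster 7 alone, led by Lef1 and Tcf7, 19 of 30 members tested were called, against 10.5% of the 3348 genes tested there. The 11 monocyte and macrophage markers had pool means from 475 CPM (pool 12) to 1083 CPM (pool 7) in the T/NK sums, all detected, and granulocytic markers from 40.4 CPM (pool 4) to 129 CPM (pool 8). Migratory DC markers had pool means from 84.5 CPM (pool 6) to 168 CPM (pool 9), and cDC1 markers from 145 CPM (pool 4) to 265 CPM (pool 9). Their part in the result was not tested.

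The highest library was not the same in both classes. Pool 11 had the highest mean of Hspa1a, Hspa1b, Dnajb1, Fos, Btg2 and Rhob in macrophages, yet the lowest of Fos, Dusp1, Egr1, Egr2, Ier2, Jund, Nr4a3 and Socs3 in T/NK cells. Fos, for instance, was 2583 ± 509 CPM (SD, n = 4) in macrophages of pool 11, and 333 ± 114 CPM (SD, n = 4) in its T/NK cells against 1016 ± 185 CPM (SD, n = 4) in those of pool 1. Pool 8 had the highest mean in both classes for Junb, Egr1, Ier5, Atf3, Nr4a2, Klf4 and Klf6.

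Whether a gene moved together in both cell classes was asked over 47 tumors on the log2(CPM + 1) scale, for 9 genes between macrophages and T/NK cells and 5 pairs of measures within macrophages, with permutation p-values adjusted over these 14 relations. Tumors of 1 pool share a library, so they are not fully independent. Hspa1b had Pearson's r = 0.74 and Spearman's rho = 0.73 between the classes, with adjusted permutation p of 7.00e-05 and 4.67e-05. Without the 2 tumors farthest from the median r was 0.70, and with library means subtracted it was 0.57 (adjusted permutation p = 0.000350). Hspa1a (r = 0.60, rho = 0.56), Egr1 (r = 0.60, rho = 0.62), Dnajb1 (r = 0.58, rho = 0.57) and Hsp90aa1 (r = 0.57, rho = 0.55) were likewise correlated, each with an adjusted permutation p of at most 0.00014 for r and 0.00016 for rho. With library means subtracted their r was from 0.34 to 0.43 (largest adjusted permutation p = 0.0306). For every relation with library means subtracted, values were permuted over all tumors and not within libraries. Those p-values do not allow for the subtracted means and can be too small.

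Nr4a1 had r = 0.51 and rho = 0.40 over all tumors (adjusted permutation p = 0.000360 and 0.00715), but 0.09 with library means subtracted (adjusted permutation p = 0.529), so its relation did not hold within libraries. For Fos r was 0.05 and rho -0.04 (adjusted permutation p = 0.761 and 0.800) over all tumors, for Jun r was 0.20 and rho 0.17 (0.197 and 0.298), and for Dusp1 r was -0.10 and rho -0.10 (0.545 and 0.520). With library means subtracted r was 0.34 for Fos (adjusted permutation p = 0.0306), 0.27 for Jun (0.0952) and 0.25 for Dusp1 (0.111). Over the 6512 genes with a mean of at least 10 CPM in both classes the median r between classes was 0.23, and over the 35 members among them it was 0.37, from -0.12 to 0.74. T/NK sums held monocyte and macrophage markers at a median of 709 CPM, against 16065 CPM in macrophages, while Hspa1b had a median of 36.4 CPM in T/NK cells and 121 CPM in macrophages.

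**Figure D4:**
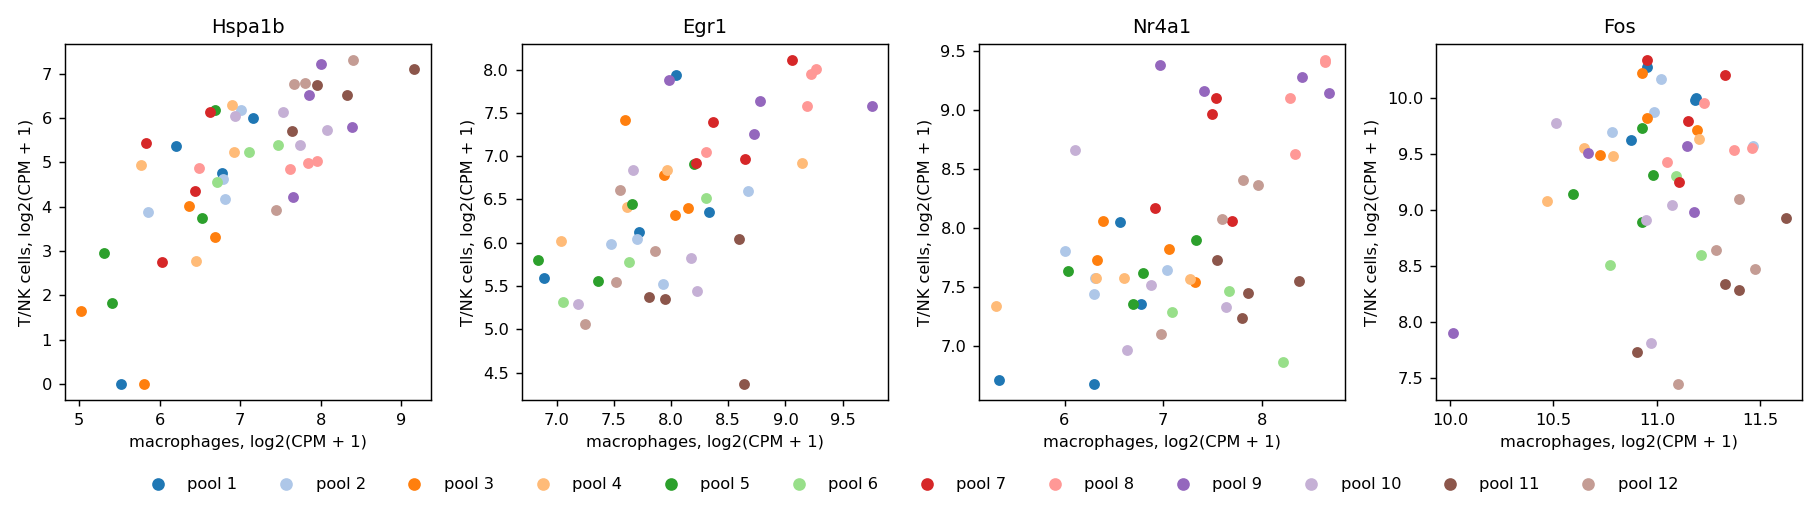
Level in T/NK cells (vertical axes) against level in macrophages (horizontal axes), both log2(CPM + 1), for Hspa1b, Egr1, Nr4a1 and Fos, with 1 point per tumor (47 tumors) colored by pool. Pearson's r is 0.74 for Hspa1b, 0.60 for Egr1, 0.51 for Nr4a1 and 0.05 for Fos.

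Within macrophages Hspa1a and Dnajb1 rose and fell together across tumors (r = 0.85, rho = 0.86, adjusted permutation p = 7.00e-05 and 4.67e-05), also with library means subtracted (r = 0.66). Fos and Jun had r = 0.46 and rho = 0.55 (adjusted permutation p = 0.00196 and 0.000160), and r = 0.53 within libraries. Fos and Hspa1a had r = 0.30 (adjusted permutation p = 0.0550) and rho = 0.42 (0.00543), with r = 0.48 without the 2 farthest tumors but 0.10 within libraries, so a relation within libraries was not detected. The mitochondrial share of macrophage UMIs, a sign of cell quality, went against Fos (r = -0.45, rho = -0.50, adjusted permutation p = 0.00227 and 0.000840) and kept r = -0.41 within libraries (adjusted permutation p = 0.0104). With Hspa1a it had r = -0.37 and rho = -0.40 (adjusted permutation p = 0.0153 and 0.00715) over all tumors and r = -0.20 within libraries (0.217).

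The next question was whether host strains differ. In macrophages 22 of the 37 genes were called between the 8 host strains (59.5%), close to the 51.3% of all 12510 genes tested. In T/NK cells 12 of 37 were called (32.4%), against 24% of the 8144 genes tested. With the pool as a block 2 of 37 were called in macrophages (Rhob and Egr3), against 12.6% of all genes, and 3 of 37 in T/NK cells (Nr4a2, Klf4 and Per1), against 7.18%. Without CC079 tumors 14 were called in macrophages (37.3% of all genes). The T/NK count was 6 without CC001 (17.5% of all genes), 7 without CC036 (12.8%) and 7 without CC079 (17.3%). It was 30 with no filter on low counts (13.2%) and 0 of 29 tested in cluster 7 alone (3.11%). Of other immediate early genes 18 of 29 tested in macrophages and 9 of 25 in T/NK cells were called, and of other heat shock genes 11 of 28 and 4 of 26. Mafk, Dusp4, Nfkbiz and Rgs1 led the first list in macrophages and Bhlhe40, Tnfaip3, Cebpb and Klf10 in T/NK cells. Bag3, Cct2, Hspa2 and Cryab led the second in macrophages, and Hsp90ab1 and Hspa9 were among those called in T/NK cells.

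The macrophage members of smallest adjusted p between strains were Maff (0.000169), Nr4a2 (0.000201), Dusp5 (0.000303), Nr4a3 (0.000450), Egr2 (0.000725), Btg2 (0.00253), Klf6 (0.00287) and Rhob (0.00328). Nr4a2 was 186 ± 78.2 CPM (SD, n = 6) in B6 and 52.3 ± 23.4 CPM (SD, n = 8) in CC001 hosts, Maff 33.6 ± 9.39 and 11.8 ± 2.41 CPM (SD, n = 6 each) in B6 and CC079, and Dusp5 51.0 ± 28.2 and 11.4 ± 2.32 CPM (SD, n = 6 each) in CC036 and CC079. B6, CC036 and CC075 tumors were in pools 6 to 11, and CC079 tumors in pools 1, 2 and 5. Rhob, called also with the block, was 97.2 ± 27.7 CPM (SD, n = 6) in CC002 and 234 ± 33.9 CPM (SD, n = 6) in CC036 hosts. CC002 and CC036 tumors shared no pool, so this contrast of means also carries pool. Within pool 12, which held CC001 and CC002 tumors, Rhob was 126 (isotype) and 137 CPM (aPD1) in CC002 and 297 and 211 CPM in CC001. These did not overlap, but with 2 tumors per strain that is a description.

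The leading T/NK members between strains were Nr4a2 (adjusted p = 0.00455), Maff (0.00797), Klf4 (0.00886), Dusp2 (0.0104), Per1 (0.0129), Nr4a3 (0.0137), Dusp5 (0.0155) and Egr2 (0.0212). Nr4a2 was lowest in CC079 hosts at 140 ± 31.1 CPM (SD, n = 6) and highest in B6 hosts at 492 ± 225 CPM (SD, n = 6). Dusp2, a nuclear MAP kinase phosphatase, was 120 ± 47.4 CPM (SD, n = 6) in CC079 and 348 ± 194 CPM (SD, n = 3) in CC007 hosts. Of the 8 heat shock genes 0 were called here (24% of all genes) and 6 in macrophages (51.3% of all genes), of which none was called with the pool as a block.

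Response class was compared next. In macrophages 0 of 37 were called, against 6.32% of 11406 genes tested, and 2 had an unadjusted p under 0.05, where 19.9% of all genes did. In T/NK cells 0 of 34 tested were called, against 2.09% of 6171 genes, and 5 had an unadjusted p under 0.05, where 14.3% of all genes did. The 37 genes had a median log2 fold change (responder over non-responder) of 0.04 in macrophages, which turned to -0.01 with library sizes alone as scaling, and from -0.12 to 0.17 as each strain was left out. The median in T/NK cells was -0.07. Of other immediate early genes 2 of 28 were called in macrophages, both higher in responder strains, Rgs1 (log2 fold change 0.68 ± 0.12 SE, adjusted p = 0.000461) and Dusp4 (1.20 ± 0.23 SE, adjusted p = 0.00107). Of other heat shock genes 1 of 28 was called, Hspa13 (0.26 ± 0.07 SE, adjusted p = 0.0178). Of either list 0 of 21 passed in T/NK cells. All tumors of a strain share its class, so these p-values treat tumors of 1 strain as independent. With counts summed per strain, 3 strains against 3, 3 of 14571 genes and 0 of 37 members were called in macrophages.

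The macrophage members of smallest p were Egr3 and Hspe1. Egr3 had medians of 4.18 CPM (range 0 to 18.7) in 20 responder and 2.61 CPM (0.706 to 9.01) in 18 non-responder tumors, with a log2 fold change of 0.87 ± 0.34 (SE, adjusted p = 0.121). Hspe1 had medians of 275 CPM (188 to 367) and 337 CPM (236 to 420), with -0.20 ± 0.08 (SE, adjusted p = 0.139). The ranges overlapped for both. With the pool as a block 2 of 37 were called in macrophages, Rhob (-0.40, adjusted p = 0.0170) and Egr3 (1.04, adjusted p = 0.0286), where 8.00% of all genes were. The same block called 2 of 34 in T/NK cells, Nr4a2 (0.71, adjusted p = 0.0273) and Rhob (-0.71, adjusted p = 0.0316), where 3.73% of all genes were. Without CC036 tumors Dusp2 and Nr4a2 were called in T/NK cells (3.10% of all genes), without CC080 tumors Dusp1 (3.96%), and without CC001 tumors Egr3 in macrophages (7.66%).

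Dusp1 and Rhob had the smallest p in T/NK cells. Dusp1 ranged from 199 to 961 CPM (median 506) in responder and from 345 to 1118 CPM (median 721) in non-responder tumors, with a log2 fold change of -0.53 ± 0.17 (SE, adjusted p = 0.0919). Rhob had medians of 14.3 and 19.5 CPM and -0.59 ± 0.21 (SE, adjusted p = 0.137). DESeq2 called Dusp1 as its only member (-0.54, adjusted p = 0.0431), in a comparison where edgeR called 2.09% of all genes. The share of all genes that DESeq2 called is not given here, so this call cannot be set against it. In pools 1 to 5 alone and in pools 8 to 12 alone, splits chosen after seeing the data, 0 members were called in either cell class. Of all genes 2.02% and 3.02% were called in macrophages of these splits and 1.25% and 0.451% in T/NK cells.

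The effect of aPD1 at 48 h was tested within each class of strain, with strain in the model. In macrophages of responder strains 0 of 37 were called, as were 0% of the 11203 genes tested, and 8 of the 37 had an unadjusted p under 0.05, where 12.9% of all genes did. The median log2 fold change (aPD1 over isotype) of the members was 0.24, with 29 of 37 positive, and that of all genes 0.00. It was 0.28 over the immediate early and -0.08 over the heat shock members. In cluster 2 alone the members' median was 0.03, and without CC075 tumors it was 0.13. DESeq2 called 23 genes in this comparison, none of them a member. In macrophages of non-responder strains 0 of 37 were called, as were 0% of the 11408 genes tested, with 0 at an unadjusted p under 0.05 (1.44% of all genes) and a median of -0.14, which was 0.01 without CC080 tumors.

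Gadd45b, a stress-induced regulator of MAP kinase signalling, and Nr4a3 had the smallest p in responder macrophages. Gadd45b ranged from 60.3 to 102 CPM (median 72.0) in 10 isotype and from 55.5 to 154 CPM (median 98.0) in 10 aPD1 tumors, with 0.52 ± 0.17 (SE, adjusted p = 0.260). Nr4a3 ranged from 16.4 to 73.1 CPM (median 39.9) and from 9.76 to 174 CPM (median 60.7), with 0.88 ± 0.31 (SE, adjusted p = 0.282). For both genes the groups overlapped. Within pairs of 1 strain and pool, Gadd45b was higher under aPD1 in all responder pairs but that of pool 5 (75.3 and 55.5 CPM), and Nr4a3 in all but CC001 in pool 1 (22.3 and 9.76 CPM) and CC002 in pool 5 (73.1 and 48.5 CPM). With the pair of pool and strain as a block their log2 fold changes were 0.46 (adjusted p = 0.162) and 0.70 (adjusted p = 0.373). These genes were picked for smallest p, and pairs were not counted over all genes. Macrophage cluster 2, high in immediate early genes, also changed its share of macrophages within pairs. In CC075 of pool 9 it was 239 of 1120 cells under isotype and 434 of 955 under aPD1. In CC002 of pool 5 it was 394 of 1143 and 399 of 1835, a fall. The share also fell in CC002 of pool 3 and CC075 of pool 10, and rose in the other responder pairs. Its part in the levels was not tested. In non-responder macrophages Klf2 (medians 286 and 221 CPM) and Jun (925 and 801 CPM) had the smallest p, and neither passed.

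In T/NK cells of responder strains 0 of 34 tested were called, as were 0% of 6555 genes, with 5 at an unadjusted p under 0.05, where 5.14% of all genes were. Those of smallest p were chaperones. Hspe1 ranged from 333 to 564 CPM (median 437) in isotype and from 265 to 429 CPM (median 368) in aPD1 tumors, with -0.30 ± 0.09 (SE, adjusted p = 0.750), and Dnaja1 had medians of 382 and 300 CPM, with -0.33 ± 0.11 (SE, adjusted p = 0.773). Within pairs of 1 strain and pool, Hspe1 was lower under aPD1 in all but CC001 in pool 2 (333 and 343 CPM) and CC002 in pool 3 (366 and 372 CPM), and Dnaja1 in all but CC075 in pool 9 (329 and 389 CPM). Hspe1 and Dnaja1 too were picked for smallest p, and pairs were not counted over all genes. The 8 heat shock members had a median of -0.31, the 21 other heat shock genes tested -0.06 and all genes -0.01. In non-responder strains 0 of 29 tested were called, as were 0% of 5401 genes, with 0 at an unadjusted p under 0.05 (2.63% of all genes), and the 2 of smallest p, Klf2 and Dusp2, had medians of 157 and 145 CPM and of 201 and 126 CPM. DESeq2 also called 0 members in each of these 4 treatment comparisons.

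The difference between the aPD1 effects in the 2 classes of strain was tested as an interaction. In macrophages 0 of 37 were called, against 0.00842% of 11873 genes (1 gene), and 5 had an unadjusted p under 0.05, where 11.1% of all genes did. The smallest p were those of Hsph1 (-0.72 ± 0.28 SE, adjusted p = 0.388) and Gadd45b (0.67 ± 0.27 SE, adjusted p = 0.390), where a positive value is a larger aPD1 effect in responder strains. In T/NK cells 0 of 36 were called, as were 0% of 6840 genes, and 2 had an unadjusted p under 0.05 (4.08% of all genes), Hspe1 (-0.39 ± 0.17 SE) and Hsph1 (-1.0 ± 0.42 SE), each with an adjusted p of 0.9997. DESeq2 called 0 members in both. No gene of the other immediate early or heat shock lists was called in the treatment comparisons or the interaction.

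**Figure D5:**
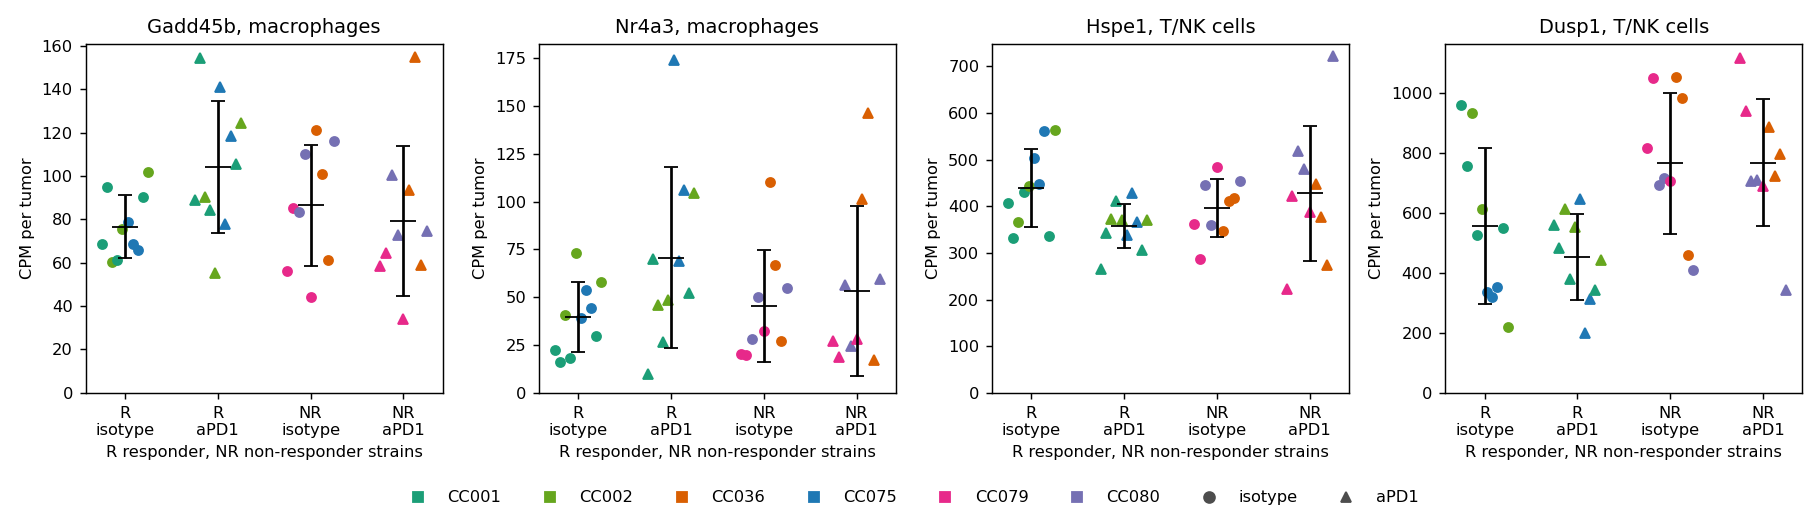
CPM per tumor (vertical axes, from 0) of Gadd45b and Nr4a3 in macrophages and of Hspe1 and Dusp1 in T/NK cells, for isotype (circles) and aPD1 tumors (triangles) of responder and non-responder strains, colored by host strain, with the mean and SD in black. The 4 groups overlap for each gene.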

How the data were processed

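Single cells of 48 tumors were sequenced in 12 libraries of 4 hashtagged tumors (10x 5′ chemistry). Per the labels and the study's methods, the authors aligned reads with Cell Ranger to GRCm38 (mm10), removed cells with high mitochondrial or ribosomal shares and clustered with Seurat 5.0.1. The deposited values were raw UMI counts per gene and cell, and the tumor and cluster of each cell came from the deposited cell table. Doublets were not called here. Response class came from the study, by strain. Clusters were named from marker genes (at least 3 markers at 100 CPM), and the haemoglobin-led cluster 12 was left unnamed.

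Counts were summed per tumor over macrophages and over T/NK cells, leaving out tumors with under 20 cells of the class, and tested with edgeR 4.0.16 (R 4.3.3, TMM, quasi-likelihood, Benjamini-Hochberg over all genes tested, 0.05). DESeq2 1.42.0 was an alternative. Total UMIs per tumor ranged from 88816 to 17713491, which limits the precision of the smallest tumors. Correlations used log2(CPM + 1) and 100000 permutations over all tumors (smallest p 1e-05), also where library means were subtracted. On simulated counts, 2-fold changes between response classes were recovered for 95.5% of changed genes in macrophages and 91.0% in T/NK cells, and a 2-fold change of 1 library for 38.8% and 23.9%. The simulated tumors were independent, with no effect of strain or pool. These shares therefore do not give the power of the response class comparison, where tumors of 1 strain share its class.

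Named genes were members past an adjusted p of 0.05, at most 8 of smallest p, or otherwise the 2 of smallest unadjusted p. The members and the lists of other genes were chosen with earlier results of these data known. Tumors carried separate animal identifiers except for the 1 shared by 2 CC080 tumors. Alternatives were another scaling, no filter on low counts, larger tumors only, the largest cluster only, a block, and leaving out each strain or pool. The block was the pool for response class and strain, and the pair of pool and strain for treatment and the interaction. Some listed genes are not reported here by name.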

Additional observations from a re-analysis of the deposited data

Results flagged for a closer look

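Of 64 groups of 9 or 10 tumors tested for a tumor far from the others, 12 held one, all at the high end. Chance alone flags about 1 in 20 groups when groups are independent. Here the groups repeat the same tumors, and every flagged gene was among those of smallest p between libraries in its cell class. The count can therefore not be read against that rate. In macrophages Hspa1a reached 595.7 CPM in the CC075 aPD1 tumor of pool 11, where the next responder aPD1 tumor had 320.9 CPM. Btg2 reached 634.7 CPM in the CC080 isotype tumor of pool 11 (next 336.2 CPM), and Dusp5 95.07 CPM in the CC036 isotype tumor of pool 8 (next 45.39 CPM).

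The other 9 were T/NK values of pool 9. In its CC075 isotype tumor Fosl2 was 213.2 CPM (next 132.9), Nr4a1 667.4 CPM (next 338.2) and Nr4a3 675.8 CPM (next 326.1). In its CC075 aPD1 tumor Ier5 was 193.4 CPM (next 123.9), Fosl2 273.2 CPM (next 143.8), Nr4a1 619.5 CPM (next 328.9), Egr1 190.1 CPM (next 108.8) and Nr4a3 737.9 CPM (next 375.4). In its CC036 aPD1 tumor Fosl2 was 229.6 CPM (next 115.3).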

How the results depend on the processing

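Counts of members called are given here where an alternative moved them by over 1.5 times, or from 0. The other alternatives, the leaving out of single pools or strains aside, gave 17 to 30 between libraries in macrophages (25 as reported; 6.48% to 27.3% of all genes), 19 to 35 in T/NK cells (27; 10.1% to 23.8%), and 18 to 24 (22; 24.1% to 59.1%) and 13 to 16 (12; 24.3% to 28.3%) between strains. The 17 in macrophages was the fit without pools 6 and 7. With the pool as a replicate block, response class called 2 members in macrophages and 2 in T/NK cells (0 without it), and strain called 2 and 3 (22 and 12 without it). Pools pair an isotype with an aPD1 tumor of each strain, and a block of these pairs changed no treatment or interaction call. In T/NK cells DESeq2 and library sizes alone each called 1 member by response class, Dusp1 in both, where the reported fit called 0 members and 2.09% of all genes. The shares of all genes called in those alternatives are not given here. Strain called 30 without a filter on low counts (13.2% of all genes) and 0 of 29 in the largest cluster (3.11%). Without pools 6 and 7, chosen after seeing the data, the library count in T/NK cells was 16 (7.68%). Leaving out each strain in turn gave 0 to 1 members by response class in macrophages and 0 to 2 in T/NK cells, and 14 to 26 (37.3% to 53.9% of all genes) and 6 to 16 (12.8% to 28.7%) between strains. Leaving out each pool gave 8 to 29 between libraries in macrophages (8.88% to 19.6% of all genes) and 17 to 29 in T/NK cells (11.05% to 22.2%). For aPD1 and the interaction the count was 0 in every alternative run. Klf2 and Dusp2 in T/NK cells of non-responder strains turned from negative to 0.021 and 0.165 (log2) in the largest cluster alone. The causes were not tested. The 11 and 7 coefficients of the library and strain tests have no single direction. Several members had no count in some tumors' T/NK cells, where the smallest tumor used had 24 cells.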
